A study of Mus musculus with 8 samples.

Results

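The proteasome subunits and their close helpers are described here across CD8 T cells of spleen and liver. Members were the rows of the expression matrices whose symbol begins with Psma, Psmb, Psmc, Psmd, Psme, Psmf or Psmg, which gave 50 of 31053 genes. They comprise the 7 alpha ring genes Psma1 to Psma7, the beta ring genes, the ATPase and other subunits of the 19S cap, the activators, 1 inhibitor and the assembly chaperones. The rule also caught Psmc3ip, which encodes a partner of a 19S ATPase that works in homologous recombination and is no proteasome part. The rule reads gene symbols alone.

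CD8+ T cells were sorted from spleens and livers of C57BL/6 wild-type mice (WT) and of EomesTg/Tg mice with that background, which express the T-box transcription factor Eomes in T cells as a transgene (genotype Eomes TG, here EomesTG). Cells of 3 mice per strain were pooled before sorting, so each strain and tissue is 1 pooled library and no spread between mice can be measured. The promoter that drives the transgene and the age of the mice are not given in the sources used here. Of 10x Genomics Chromium 5′ gene expression libraries there were 4, each with a matching T cell receptor library. The cells kept numbered 5333 and 5726 T cells from the WT and EomesTG spleens and 3128 and 4517 from the WT and EomesTG livers, with totals of 18947779 to 28754966 UMIs (unique molecular identifiers, counted transcripts) per library. Levels are given as CPM, the UMIs of a gene per 1000000 UMIs of the T cells of that library, with exact Poisson intervals at 95% for levels and exact binomial intervals for ratios and shares. These intervals cover counting error only, and with 1 library per group no difference between strains or tissues has a replicate check or a p-value.

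The sorted cells carried T cell and CD8 transcripts. The markers Cd3d, Cd3e, Cd3g and Trac, which mark any T cell, with Cd8a and Cd8b1 summed to 4750 to 7191 CPM. Markers of myeloid cells summed to at most 1.21 CPM, those of B cells, mostly Ighm, to 93.0 to 259 CPM, and 28 cells of other types were left out. Hepatocyte markers reached 13.9 CPM in WT liver, and those of plasma cells 23.0 CPM in EomesTG liver. Eomes itself was at 86.9 CPM in WT spleen and 134 CPM in EomesTG spleen, and at 84.9 CPM in WT liver and 182 CPM in EomesTG liver. Of 18493 distinct barcodes, 217 occurred in more than 1 library. The median UMIs per cell ran from 3918 in EomesTG liver to 5463 in WT liver. Genes of the immediate early response, which also move during tissue dissociation, summed to 1059 and 1836 CPM in WT and EomesTG spleen against 7396 and 6726 CPM in WT and EomesTG liver, and their part in differences between tissues was not tested.

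The proteasome is the barrel-shaped protease that degrades ubiquitin-tagged proteins and supplies most peptides shown on MHC class I molecules. Its 20S core is made of alpha rings that gate the barrel and beta rings that carry the protease sites, and the 19S cap recognises ubiquitin chains, unfolds the substrate and feeds it in. In lymphoid cells, and after interferon gamma in most cells, the catalytic subunits Psmb6, Psmb5 and Psmb7 of new particles are replaced by Psmb9, Psmb8 and Psmb10, which gives the immunoproteasome. Psme1 and Psme2 form the interferon-induced PA28 activator. The alpha ring and the other beta subunits are common to both forms, so only the 3 catalytic pairs separate them directly.

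RefSeq promoter sequences (GRCm38.p6) were matched for 42 of the 50 members, and the 250 bases before the annotated start were searched. Windows of 30 bases are shown for the immunosubunit genes with a match to a searched motif (Psmb8 and Psmb9), for 2 of the constitutive subunits they replace, and for Psmg1 and Psmd14, the members with the largest differences between libraries. Capitals mark the motif match. All windows are written 5′ to 3′ on the gene's own strand:
Psmb8: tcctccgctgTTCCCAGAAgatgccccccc
Psmb9: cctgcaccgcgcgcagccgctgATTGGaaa
Psmb5: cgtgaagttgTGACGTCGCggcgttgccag
Psmb6: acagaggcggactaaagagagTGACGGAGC
Psmg1: actcatgTTCTCTGAAtccgcttgcagtca
Psmd14: cagtgaagcaggATTGGcactgtgaaaaaa
The windows lie at chr17:34198088-34198117 (plus strand, Psmb8), chr17:34187331-34187360 (minus, Psmb9), chr14:54618023-54618052 (minus, Psmb5), chr11:70525327-70525356 (plus, Psmb6), chr16:95991181-95991210 (minus, Psmg1) and chr2:61711523-61711552 (plus, Psmd14). The Psmb8 and Psmb9 windows each overlap an annotated exon of their own gene (GENCODE M21), and the other windows overlap none.

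The letters searched on both strands were TTCNNNGAA, the form of the gamma-activated sequence, a pair of GAAA runs with 2 bases between them for interferon regulatory factors, TGACNNNGC, the core of the antioxidant response element, and CCAAT, which reads ATTGG on the other strand. The motif forms do not contain one another. TTCNNNGAA occurred in 2 of 42 members (4.76%, Psmb8 and Psmg1) against 8.13% of all 27025 promoters. The GAAA pair occurred in 3 members (7.14%) against 3.46%, and in none of the 5 immunoproteasome genes. TGACNNNGC occurred in 5 members (11.9%) against 11.5%, Psmb5 and Psmb6 among them. CCAAT occurred in 15 members (35.7%) against 37.5%. With so few matches no share is read as particular to the members, and a match in a window of this length is a description of its letters only.

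Of the 50 members, 48 had at least 50 UMIs over the compared libraries. The 2 that did not were Psma8, the testis alpha subunit, and Psmb11, the catalytic subunit of thymus epithelium, each with 1 UMI in the WT liver library and 0 in the other libraries. A count of 0 allows up to 0.104 to 0.158 CPM in these libraries (3 counts of the total). The 48 measured members summed to 6086 and 6291 CPM in the WT and EomesTG spleens, and to 6703 and 6920 CPM in the livers. EomesTG liver held the highest level of 26 of the 48 and EomesTG spleen the lowest level of 28. No such count was taken over all genes. The median log2 ratio of all genes was itself 0.12 for EomesTG over WT liver and 0.19 for EomesTG liver over spleen. These counts are therefore not read as particular to the members.

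**Figure D1:**
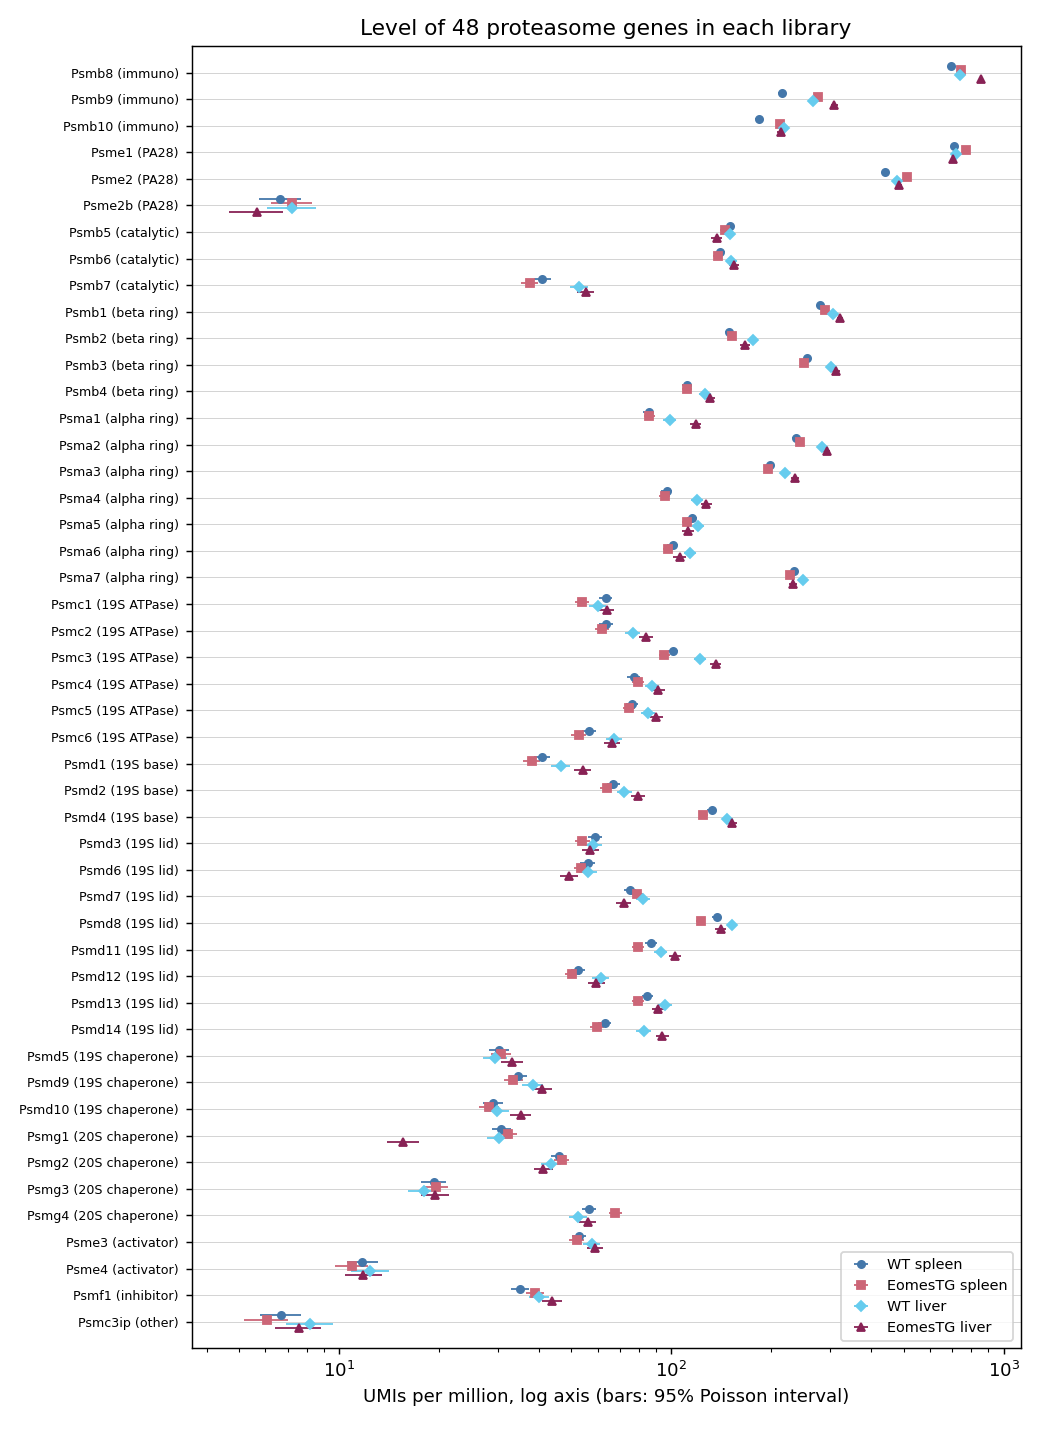
Levels of the 48 measured members in the 4 libraries, in CPM on a log axis, each with its exact Poisson interval. The 4 points of most members lie close together, and Psmg1 in EomesTG liver, at 15.6 CPM, lies well to the left of its other 3 points.

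The immunoproteasome genes were first set against the constitutive 20S genes by shares of UMIs within a library, which do not depend on library scaling. In WT spleen the 5 immunoproteasome genes (Psmb8, Psmb9, Psmb10, Psme1, Psme2) made up 50.5% (50.2 to 50.8) of the UMIs of these genes and the 14 constitutive 20S genes (Psma1 to Psma7, Psmb1 to Psmb7) together. The share was 53.6% (53.3 to 53.8) for EomesTG spleen, and the livers had 49.5% (49.2 to 49.8) in WT and 50.6% (50.3 to 50.9) in EomesTG. By this 5-gene share EomesTG spleen stood above the other libraries by more than counting error, while the other shares lay within a narrow band. This share also counts Psme1, Psme2 and subunits common to both forms. With the 3 catalytic pairs alone it was 76.7% (76.3 to 77.1) in WT spleen and 79.4% (79.0 to 79.7) in EomesTG spleen. The catalytic pairs, given below, did not place EomesTG spleen above EomesTG liver throughout. Because a UMI of a 5′ library stands for 1 transcript molecule as captured, a share says how the molecules counted were divided between the genes, not how much protein each made.

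The genes of the immunosubunits Psmb8 (chr17:34197721-34201454, plus strand, GENCODE M21 on GRCm38) and Psmb9 (chr17:34181987-34187764, minus) lie close to each other in the MHC region, Psmb10 lies at chr8:105935735-105938444 (minus), and Psme1 (chr14:55578123-55581529, plus) and Psme2 (chr14:55587441-55591113, minus) lie close together too. Within the catalytic pairs the immunosubunit was the more frequent transcript in every library. In the order WT spleen, EomesTG spleen, WT liver, EomesTG liver, Psmb8 made up 82.2%, 83.7%, 83.1% and 86.2% of Psmb8 and Psmb5 UMIs. For Psmb9 against Psmb6 the shares were 60.5%, 66.6%, 63.8% and 66.7%. For Psmb10 against Psmb7 they were 81.8%, 85.0%, 80.5% and 79.4%. The pairs did not order the libraries alike: EomesTG liver was highest for the Psmb8 pair, lowest for the Psmb10 pair, and level with EomesTG spleen for the Psmb9 pair. For the Psmb10 pair its interval overlapped that of WT liver.

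**Figure D2:**
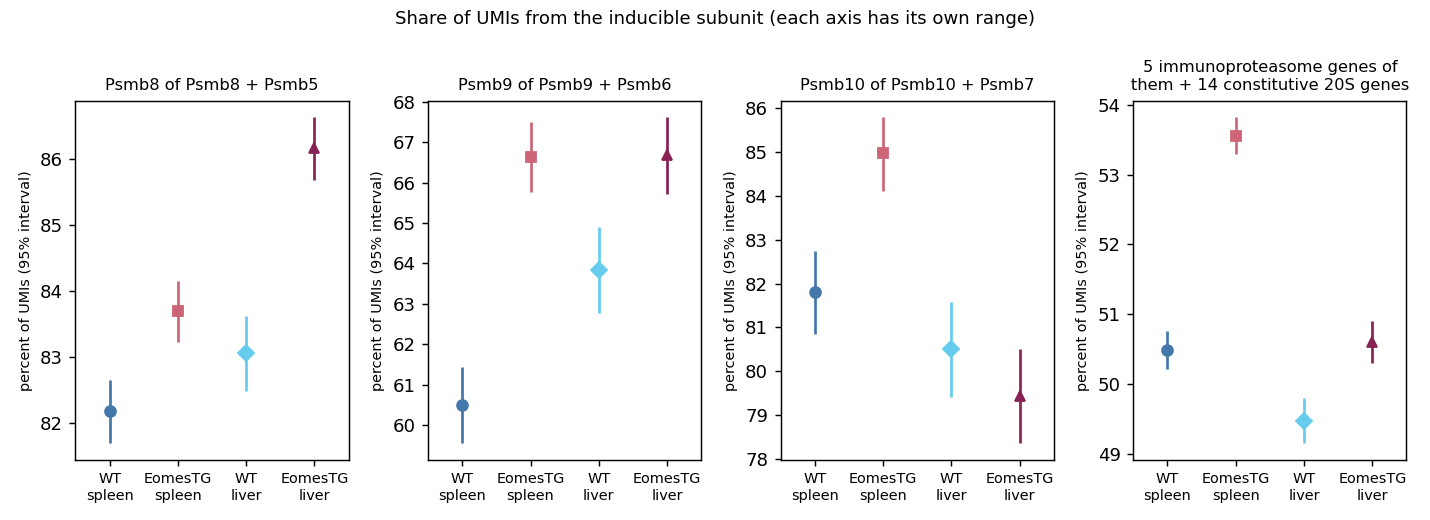
Share of the immunosubunit in each catalytic pair, and of the 5 immunoproteasome genes among them and the 14 constitutive 20S genes, in percent with exact binomial intervals for the 4 libraries. EomesTG spleen is above WT spleen in all pairs. EomesTG liver is above WT liver for Psmb8, while for Psmb10 it is lower with overlapping intervals.

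The comparison of EomesTG with WT spleen asks which members go with the transgene in spleen. No member differed by the 1.5-fold used as the call (with its interval on the same side of equality): 0 of 48 were higher, against 2.68% of all genes tested, and 0 were lower, against 4.93%. What separated the libraries was a smaller shift of all 5 immunoproteasome genes. Psmb9, the beta 1i subunit, was at 215 CPM in WT and 276 CPM in EomesTG spleen, a log2 ratio of 0.36 (0.31 to 0.41), and was the single member at least 25% higher (6.22% of all genes were). Psmb10, the beta 2i subunit, was at 184 and 212 CPM (log2 0.20). Psmb8, the beta 5i subunit, was at 693 and 744 CPM (log2 0.10). Psme1 was at 708 and 772 CPM (log2 0.13) and Psme2 at 440 and 512 CPM (log2 0.22). All 5 intervals lay above equality, as did 8 of 48 members and 15.4% of all genes tested. The 5 listed markers of dendritic cells, which express immunoproteasome genes too, summed to 5.18 CPM in WT and 48.2 CPM in EomesTG spleen, most of the latter Cd74 (41.6 CPM), while Flt3 was at 0 in both. Their part in the shift was not tested.

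The constitutive partners showed no such rise in spleen. Their sum had a log2 ratio of -0.05 (-0.09 to -0.008), with 1 of the 3 intervals below equality. Psmb5 was at 150 and 145 CPM in WT and EomesTG spleen (log2 -0.05), Psmb6 at 140 and 138 CPM (log2 -0.02), and Psmb7 at 40.9 and 37.4 CPM (log2 -0.13). The summed constitutive 20S genes were at 2196 and 2181 CPM, while the summed immunoproteasome genes were at 2239 and 2515 CPM (log2 0.17, 0.15 to 0.18). Of the 17 subunits of the 19S cap, 7 had an interval below equality and 0 above, with a median log2 ratio of -0.08; intervals below equality were found for 8 of 48 members and 20% of all genes. The lowest of these were the base ATPase Psmc1 (63.4 to 53.8 CPM, log2 -0.24), the lid subunits Psmd8 (log2 -0.16), Psmd11 (log2 -0.13) and Psmd3 (log2 -0.12), and the ubiquitin receptor Psmd4 (log2 -0.08). At the upper end stood Psmg4, a chaperone of 20S assembly (56.4 to 67.8 CPM, log2 0.26), followed by Psmb1 (log2 0.05), Psma2 (log2 0.04), Psmd7 (log2 0.07) and Psmb2 (log2 0.03). Psme3, the nuclear PA28 gamma activator (log2 -0.02), Psme4, the PA200 activator (log2 -0.11), and Psmf1, the PI31 inhibitor (log2 0.15), stayed within 25% of equality.

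Interferon gamma acts in part through the transcription factor IRF1, which also binds genes of the immunoproteasome. Of 17 listed genes of that program, 8 were called higher in EomesTG than in WT spleen and 0 lower, and their median log2 ratio was 0.53 against -0.01 over all genes. Iigp1, an interferon-induced GTPase, was at 5.36 CPM in WT and 28.8 CPM in EomesTG spleen (log2 2.43), Igtp at 53.1 and 113 CPM (log2 1.08) and Gbp4 at 48.7 and 83.7 CPM (log2 0.78). Of the 11 peptide loading genes, which encode the partners that carry and trim proteasome products, 0 were called, and their median log2 ratio was 0.25. Of 20 measured partners (ubiquitin genes and their activating enzymes, deubiquitinases, shuttle and assembly factors) 0 were called. Of 6 genes that control or process NRF1, the factor that raises proteasome genes when proteolysis falls short, 0 were called, and Nfe2l1, which encodes it, was at 15.4 and 12.2 CPM (log2 -0.33).

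**Figure D3:**
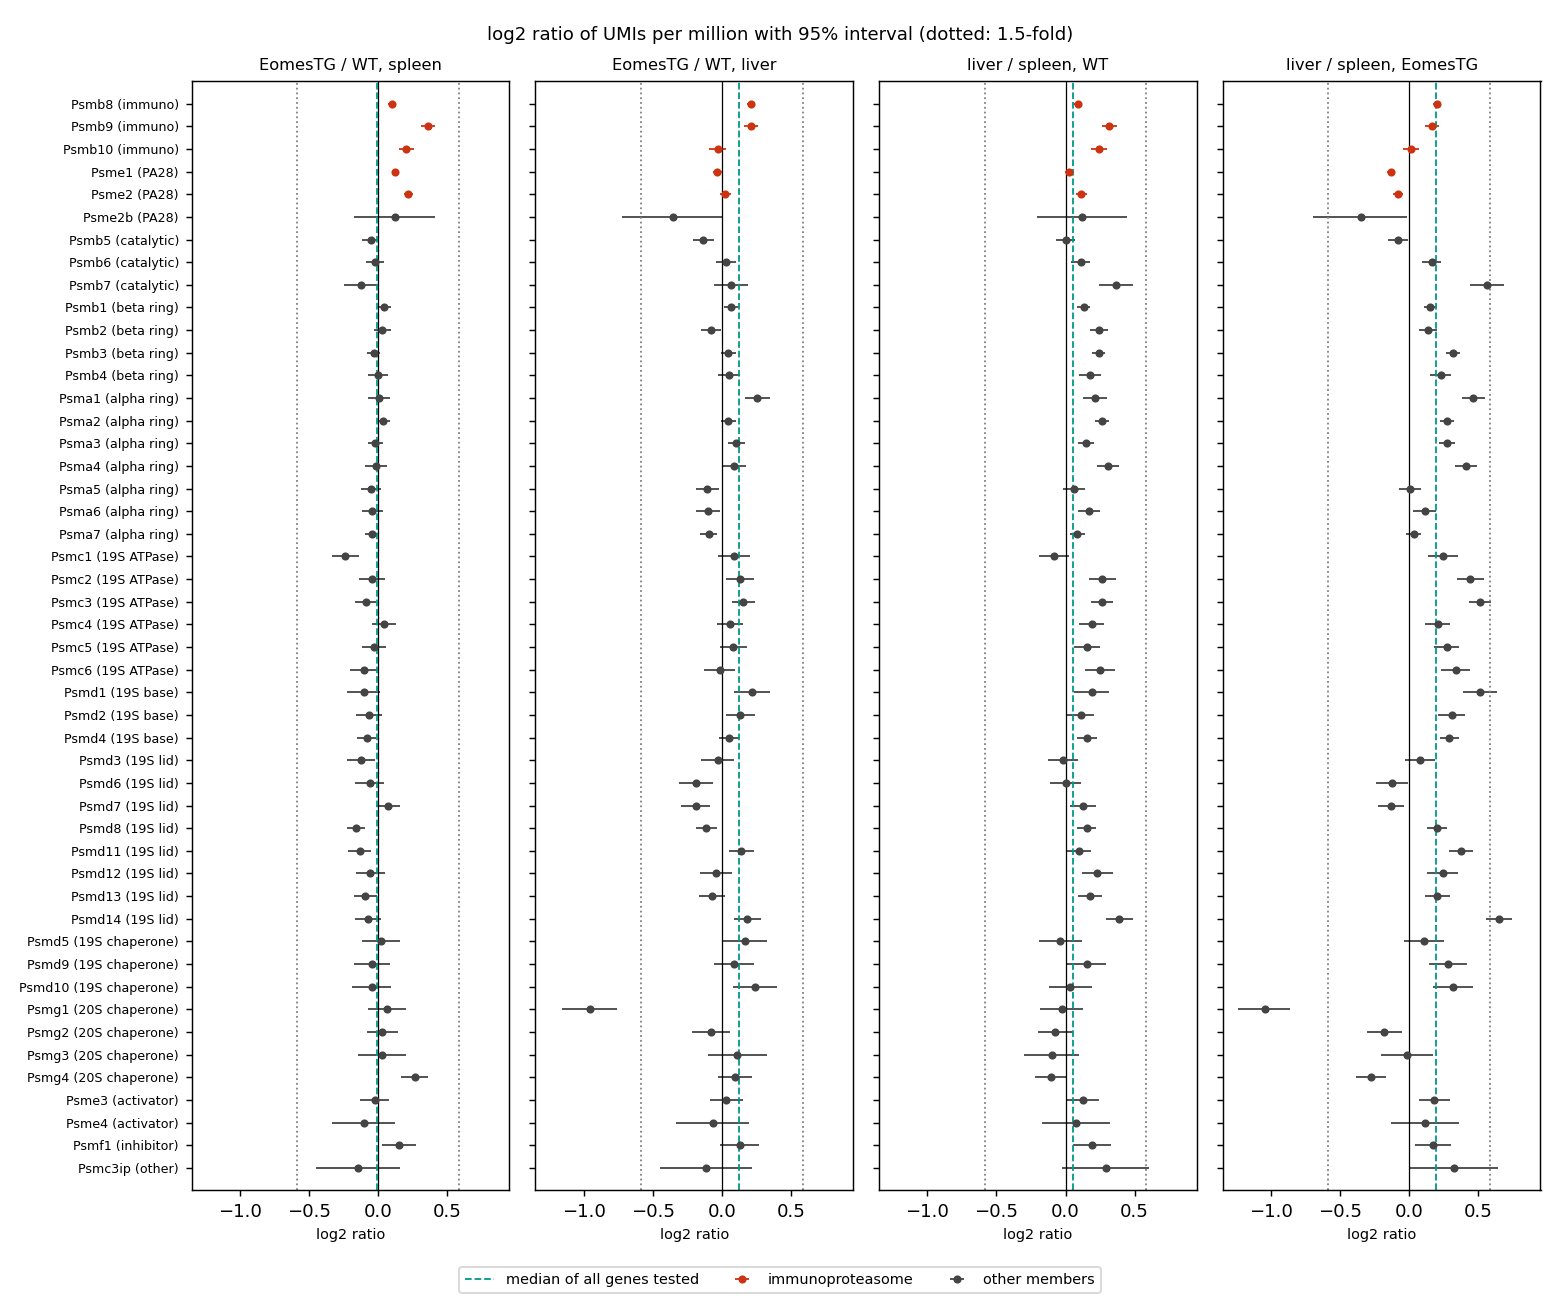
Log2 ratios of all 48 measured members in the 4 comparisons of libraries, with exact conditional binomial intervals, with the 5 immunoproteasome genes in a colour of their own, dotted lines at 1.5-fold and a dashed line at the median of all genes tested. Most points lie within 1.5-fold of equality, and Psmg1 is the one far below it in both comparisons with EomesTG liver.

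The higher immunoproteasome share of EomesTG spleen went largely with 1 group of cells. Cells were clustered without the member genes, and cluster 0, led by Iigp1 and Tgtp1, held 2699 of 5726 T cells in EomesTG spleen and 249 of 5333 in WT spleen. The naive list had its highest median there (log2 0.62 against all other cells). It is left unnamed because no naive marker was among its leading genes. Its immunoproteasome share was 56.3% in both spleens. Without cluster 0 the share was 50.2% in WT and 51.2% in EomesTG spleen, and the log2 ratio of the summed immunoproteasome genes was 0.08 in place of 0.17. Psmb9 alone still had a log2 ratio of 0.25 without that cluster. The count of 8 members with an interval below equality in spleen moved too. It was 2 without cluster 0, 3 without the cycling-like cluster 9 and the unnamed cluster 14, 4 without cycling-like cells alone and 2 with cells thinned to 2000 UMIs, which leaves fewer counts. The median log2 ratio over the members, -0.03 with all cells, was 0.02 without cluster 0, without clusters 9 and 14, and thinned, so no lowering of the members as a whole is read in spleen.

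Within clusters present in both spleens, Psmb9 was higher in EomesTG throughout. Its interval lay above equality in 9 of 10 clusters, and its log2 ratios ran from 0.09 to 0.44. Psmb10 and Psme2 each had an interval above equality in 3 of 10 clusters, Psme1 in 2 and Psmb8 in 0. An interval below equality was found in 1 cluster each for Psme1 and Psme2. The Psmb8 ratios within clusters ran from -0.18 to 0.13. Psmb9 shares its locus with Tap1, the peptide transporter gene, which overlaps it on the opposite strand, and the sources used here do not give the strand setting of the authors' counting. Tap1 was at 110 CPM in WT spleen and 151 CPM in EomesTG spleen (log2 0.45). Whether the counting kept reads of the 2 genes apart where they overlap was not tested. Psmb8, Psmb10 and Psme1 each overlap 1 gene on the opposite strand as well, while Psme2 and Psmb6 overlap none.

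In liver, the comparison of EomesTG with WT called 1 of 48 members lower, Psmg1, against 6.73% of all genes, and 0 higher, against 13.7%. The median log2 ratio was 0.05 over the members and 0.12 over all genes, so the typical member lay slightly below the typical gene. Intervals lay above equality for 14 members (39.4% of all genes) and below it for 9 (18.4%). When libraries were scaled by the median of ratios in place of the total, 3 members lay above and 21 below, so the direction of small differences in liver depends on the scaling and no direction is read from them.

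Psmb8 was at 737 CPM in WT and 853 CPM in EomesTG liver (log2 0.21, 0.18 to 0.24). Psmb9 was at 267 and 309 CPM (log2 0.21, 0.16 to 0.26). Both lay above the all-gene median of 0.12. Psmb10 was at 218 and 213 CPM (log2 -0.03), Psme1 at 721 and 705 CPM (log2 -0.03) and Psme2 at 476 and 484 CPM (log2 0.02). Unlike in spleen, the 5 genes therefore did not move together: 2 had intervals above equality and 3 included it. Among the constitutive partners Psmb5 was at 150 and 137 CPM (log2 -0.13), Psmb6 at 151 and 155 CPM (log2 0.03) and Psmb7 at 52.7 and 55.2 CPM (log2 0.07). The Psmb8 and Psmb5 ratios lay on opposite sides of equality, which is the difference in the share of this pair given above.

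Other members in liver ranged from Psma1, an alpha ring subunit (99.0 to 118 CPM, log2 0.26), down to Psmg1. Next to Psma1 stood Psmd1, the cap scaffold (log2 0.22), Psmd14, the deubiquitinase of the lid (log2 0.19), Psmd10, the cap assembly chaperone gankyrin (log2 0.24), and Psmc3 (log2 0.16). Above Psmg1 at the lower end stood the lid subunits Psmd7 and Psmd6 (log2 -0.19 each), Psmd8 (log2 -0.11) and Psma7 (log2 -0.10). Psme3 (log2 0.03), Psme4 (log2 -0.07) and Psmf1 (log2 0.13) had intervals that include equality. Of the interferon gamma program 2 genes were called higher in EomesTG liver, Ifng itself (142 to 404 CPM, log2 1.51) and Nlrc5 (log2 0.66), the activator of MHC class I genes, and 2 lower, Ifngr2 (log2 -1.10) and Gbp6 (log2 -0.62). Of the 20 partners 2 were called higher, 1 of them Akirin2, which carries proteasomes into the nucleus (12.1 to 19.1 CPM, log2 0.66), and of the NRF1 control and peptide loading genes 0 were called.

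Psmg1 encodes PAC1, which with Psmg2 (PAC2) holds the alpha ring while it forms. It was at 30.8 CPM in WT spleen, 32.2 CPM in EomesTG spleen and 30.2 CPM in WT liver, and at 15.6 CPM in EomesTG liver. The first 3 libraries were alike within counting error and the fourth lay apart. The log2 ratio of EomesTG to WT was -0.96 (-1.16 to -0.76) in liver and 0.06 (-0.07 to 0.20) in spleen. Its partner Psmg2 was at 43.5 CPM in WT and 41.2 CPM in EomesTG liver (log2 -0.08), and Psmg3 and Psmg4, which form the other chaperone pair, had log2 ratios of 0.11 and 0.09. In EomesTG liver Psmg1 was therefore the only one of the 4 assembly chaperones called. No annotated gene overlaps Psmg1 (chr16:95979933-95990960, minus strand, GENCODE M21).

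The low Psmg1 level sat in particular clusters and clones of EomesTG liver. In cluster 1, an exhausted-like cluster with Pdcd1 and Cd200r1 among its leading genes and 2677 of its cells from EomesTG liver, Psmg1 was at 9.93 CPM (8.08 to 12.1). In cluster 15, unnamed and led by Prss2 and Coch, it was at 7.57 CPM. In clusters 0, 2, 6 and 13 of the same library it was at 35.2, 31.7, 30.7 and 38.6 CPM, but these levels rest on 24, 11, 12 and 12 UMIs, and their intervals together span 15.8 to 67.3 CPM. Cluster 11 was at 18.6 CPM (10.7 to 30.3), and cluster 12 had 1 UMI (3.93 CPM, 0.099 to 21.9). Without clusters 1 and 15 the log2 ratio of EomesTG to WT liver was -0.41, no longer past 1.5-fold. Yet the direction was also seen within 2 clusters that both livers share: in immediate early-like cluster 3 Psmg1 was at 28.1 CPM in WT and 19.6 CPM in EomesTG liver (log2 -0.52), and in cycling-like cluster 9 at 41.3 and 21.1 CPM (log2 -0.97, called lower, as were 5.81% of all genes there). These were the only liver clusters with enough Psmg1 UMIs to compare.

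Clones, taken as cells with the same receptor clonotype, divided the library in the same way. In EomesTG liver Psmg1 was at 22.0 CPM (18.6 to 25.8) in the 1219 cells whose clone had 1 cell. It was at 23.0 CPM in 495 cells of clones of 2 to 9 cells and at 9.37 CPM (7.55 to 11.5) in 2247 cells of 44 clones of 10 or more cells. In WT liver the values for the same clone sizes were 31.7, 22.8 and 25.0 CPM, with overlapping intervals for clones of 2 to 9 and of 10 or more cells. The largest EomesTG liver clones, of 492 and 430 cells, had 12.3 and 7.37 CPM, against 28.0 CPM (18.3 to 41.1) in the largest WT liver clone of 114 cells. Counting each clone as 1 cell gave a log2 ratio of EomesTG to WT liver of -0.53. Within cluster 1 of EomesTG liver, Psmg1 was at 16.9 CPM (7.72 to 32.1) in 133 cells of 1-cell clones. It was at 16.1 CPM (9.70 to 25.2) in 339 cells of clones of 2 to 9 cells. In 1816 cells of clones of 10 or more it was at 7.73 CPM (5.83 to 10.1). These levels rest on 9, 19 and 55 UMIs, so the low level of cluster 1 cannot be told apart from that of its large clones. Cells of few clones make up much of this library, so clone and library cannot be told apart for the largest clones.

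**Figure D4:**
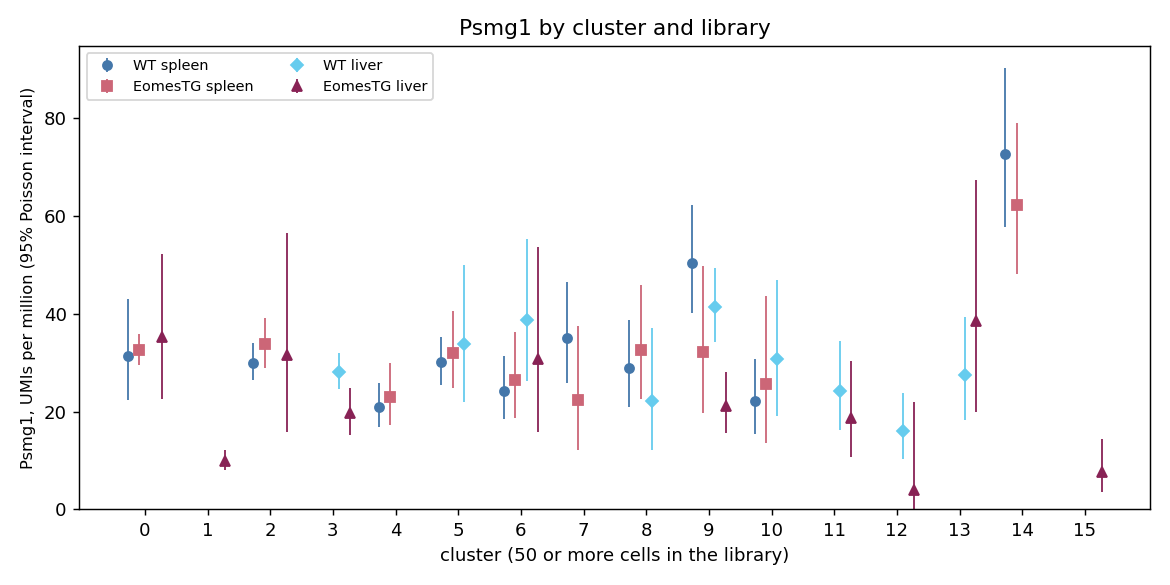
Psmg1 in CPM by cluster and library, with exact Poisson intervals. Clusters 1 and 15 of EomesTG liver lie at 9.93 and 7.57 CPM, and cluster 14 of WT spleen is highest, at 72.7 CPM.

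Liver was then compared with spleen within each strain. Both comparisons use the same libraries as those above, so values are given side by side and are not counted as separate evidence. In WT, 0 members were called higher (11.4% of all genes) and 0 lower (3.39%), with 33 intervals above equality (32.6% of all genes) and 0 below (17.1%); 2 members were at least 25% higher (18.8% of all genes). In EomesTG, Psmd14 was called higher (1 of 48, against 23.6% of all genes) and Psmg1 lower (1 of 48, against 9.69%), with 31 intervals above equality (49.7%) and 9 below (20.9%); 9 members were higher by at least 25% (37.3% of all genes) and 2 lower by that factor (15.2%). The median log2 ratio of the members was 0.15 in WT, against 0.06 over all genes, and 0.20 in EomesTG, against 0.19 over all genes. With mitochondrial, ribosomal, receptor and heat shock genes left out of the total, 10 intervals lay above and 14 below in WT and 7 above and 27 below in EomesTG. The general upward shift in liver is thus not stable to the scaling.

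Psmd14 encodes the metalloprotease that cuts ubiquitin chains from substrates as they enter. It was at 63.0 CPM in WT spleen, 59.8 CPM in EomesTG spleen, 82.5 CPM in WT liver and 93.8 CPM in EomesTG liver. The liver to spleen log2 ratio was 0.39 (0.29 to 0.49) in WT and 0.65 (0.55 to 0.74) in EomesTG, and both livers lay above both spleens. In EomesTG the ratio was 0.47 with scaling by the median of ratios and 0.34 with the reduced total, which is below 1.5-fold. In WT liver it was at 76.6 CPM in clones of 1 cell, 115 CPM in clones of 2 to 9 and 105 CPM in clones of 10 or more cells. In EomesTG liver the values were 73.8, 98.7 and 109 CPM. Clones of 1 cell were therefore lower than larger clones in both livers. No all-gene median was taken for clone sizes, so this is not read as particular to Psmd14. Psmd14 overlaps 2 annotated genes, 1 of them on the opposite strand.

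The immunoproteasome genes made up 50.5% of their own and the constitutive 20S UMIs in WT spleen against 49.5% in WT liver. In EomesTG the share was 53.6% in spleen and 50.6% in liver, and no scaling of libraries changes these shares. They also count Psme1, Psme2 and subunits common to both forms. Within the catalytic pairs the Psmb8 share was higher in liver than in spleen in both strains, and the Psmb10 share lower. In WT the counting intervals of the tissues overlapped for both of these pairs. The Psmb9 share was higher in liver in WT and level between the tissues in EomesTG. In WT, liver to spleen log2 ratios were 0.09 for Psmb8, 0.32 for Psmb9, 0.24 for Psmb10, 0.03 for Psme1 and 0.11 for Psme2. In EomesTG they were 0.20, 0.17, 0.01, -0.13 and -0.08. Psmb7 was higher than these, at 0.37 in WT and 0.56 in EomesTG, while Psmb5 was at 0.00 and -0.08 and Psmb6 at 0.11 and 0.16. Psme3 was at 0.13 and 0.18, Psme4 at 0.08 and 0.12, and Psmf1 at 0.19 and 0.17. The summed immunoproteasome genes had a ratio of 0.11 in WT and 0.03 in EomesTG, and the summed constitutive 20S genes 0.17 and 0.20. These ratios are relative to the total: with scaling by the median of ratios the immunoproteasome sum had 0.052 in WT and -0.15 in EomesTG. The size and direction of each sum's ratio thus depend on the scaling. Scaling moves both sums alike, so the immunoproteasome ratio stays below the constitutive 20S ratio in both strains.

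Among other members the WT ratios were highest for Psmd14, Psma4 (0.31), Psma2 (0.26), Psmb3 (0.24) and Psmc3 (0.27), and lowest for Psmg4 (-0.11), Psmc1 (-0.08), Psmg2 (-0.07), Psmd3 (-0.02) and Psmg3 (-0.10). In EomesTG they were highest for Psmd14, Psmc3 (0.51), Psmd1 (0.51), Psma1 (0.46) and Psmc2 (0.44). With each clone weighted as 1 cell these 5 ratios were 0.36, 0.18, 0.16, -0.03 and 0.08. Psma1 was at 78.1 CPM in EomesTG liver cells of 1-cell clones and 148 CPM in clones of 10 or more cells. The EomesTG ratios were lowest for Psmg1 (-1.05, -1.24 to -0.86), Psmg4 (-0.28), Psmg2 (-0.18), Psmd7 (-0.13) and Psme2b (-0.35), an intronless copy of Psme2 whose reads may be shared with it. All 4 assembly chaperones had ratios below 0 in both strains, with intervals that include equality for all 4 in WT. Psmg3 also included it in EomesTG, at -0.01.

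Between the tissues, genes of the interferon gamma program passed 1.5-fold in both strains. In WT, 7 of 17 genes were called higher in liver and 1 lower, led by Ifng (5.49 to 142 CPM, log2 4.69), Irf1 (134 to 246 CPM, log2 0.87), Ifngr1 (log2 0.71) and Socs1 (log2 0.73). The gene lower was Ifngr2 (log2 -0.60). In EomesTG, Ifng was called higher (6.72 to 404 CPM, log2 5.91) and 8 genes lower, among them Iigp1 (28.8 to 7.26 CPM, log2 -1.99), Ifngr2 (log2 -1.84) and Igtp (log2 -0.97). Over the same comparison Psmb8 and Psmb9 had positive ratios and Psme1 and Psme2 negative ones. Of the 20 partners 2 were called higher in each strain, 1 of them the polyubiquitin gene Ubb in both (2087 to 3705 CPM in WT, 2431 to 4984 CPM in EomesTG). Nfe2l1 was called higher in EomesTG (12.2 to 19.4 CPM, log2 0.67) and Pdia3, a chaperone of peptide loading, as well (193 to 319 CPM, log2 0.72), while in WT 0 genes of either list were called.

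The widest range of the proteasome genes was found between clusters within a library. Clusters of spleen were set against the naive-like cells (clusters 4 and 7) of the same library. Such comparisons describe cells that were grouped by other genes of the same cells, so they carry no test. In naive-like cells the immunoproteasome share was 52.8% in WT and 54.0% in EomesTG spleen, and 51.7% and 51.2% when cells were clustered more coarsely (resolution 0.5), so its order between the strains depends on the clustering. In memory-like cells it was 52.1% and 51.7%, and in those of WT and EomesTG liver 51.3% and 51.4%. In spleen it was 42.5% and 45.3% in cycling-like cells, 57.6% and 60.3% in interferon-like cells, and 36.9% and 44.5% in cluster 14, which is unnamed and led by Lad1, Egr3 and Egr2.

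**Figure D5:**
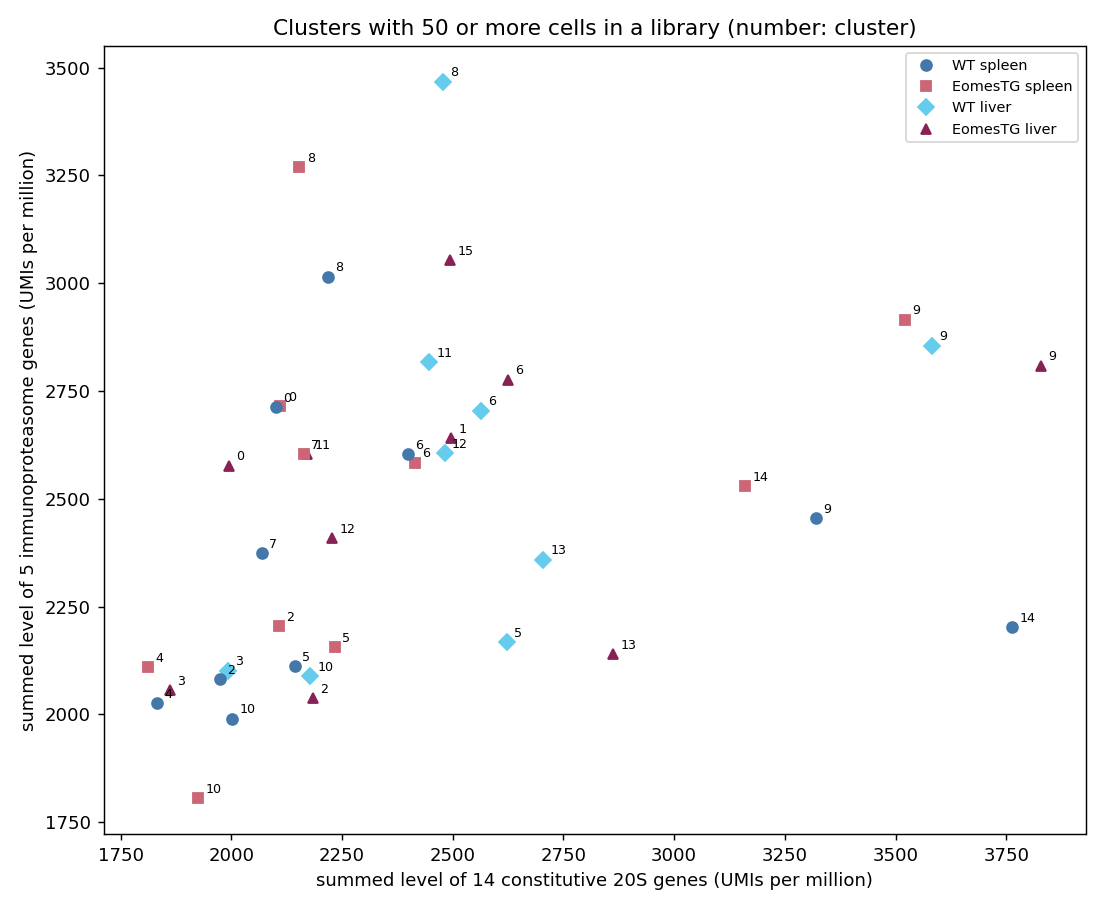
Summed CPM of the constitutive 20S genes against the 5 immunoproteasome genes, 1 point for each cluster and library. Clusters 9 and 14 lie far along the constitutive axis, at 3160 to 3828 CPM, while cluster 8, at 3015 to 3467 CPM, and cluster 15 of EomesTG liver, at 3054 CPM, are highest on the immunoproteasome axis.

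Cluster 14 carried the highest summed constitutive 20S transcripts of WT spleen. In WT spleen, 34 of 46 measured members were called higher than in naive-like cells, against 25.7% of all genes, and 0 of the 5 immunoproteasome genes were among them. The constitutive 20S genes had a median log2 ratio of 1.10 with 13 of 14 called, and the 19S subunits 1.01 with 15 of 17 called, against 0.10 over all genes. Psme3 was at 45.5 CPM in naive-like cells and 165 CPM in cluster 14 (log2 1.86), Psmd12, a lid subunit, at 42.4 and 139 CPM (log2 1.71), Psmd1 at 34.3 and 108 CPM (log2 1.65) and Psmg1 at 24.4 and 72.7 CPM (log2 1.57). All 4 assembly chaperones were called higher. In contrast Psmb9 was at 189 and 141 CPM (log2 -0.42), Psmb10 at 161 and 130 CPM (log2 -0.31) and Psmb8 at 634 and 595 CPM (log2 -0.09). Psmb5, Psmb6 and Psmb7 had ratios of 1.03, 1.16 and 1.08, Psme1 and Psme2 0.13 and 0.42, Psme4 -0.03 and Psmf1 -0.16.

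EomesTG spleen showed a like pattern in cluster 14, with 30 of 45 measured members called higher (23% of all genes). Psme3 was at 35.1 and 171 CPM (log2 2.28), Psmd1 at 30.5 and 93.3 CPM (log2 1.62) and Psmg1 at 22.8 and 62.2 CPM (log2 1.45). Psme2 was called there as the single immunoproteasome gene (434 to 733 CPM, log2 0.76), while Psmb8 (log2 -0.10), Psmb9 (log2 -0.32) and Psmb10 (log2 -0.14) were not. Of the interferon gamma program 11 of 14 measured genes were called lower in cluster 14 of WT spleen (15% of all genes), and in that of EomesTG spleen 1 was called lower (9.18%) and 2 higher. The summed constitutive genes of cluster 14 were at 3764 CPM in WT and 3160 CPM in EomesTG spleen and the immunoproteasome genes at 2203 and 2529 CPM. The cluster held 138 cells of WT and 163 cells of EomesTG spleen, so these values rest on few cells.

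Cycling-like cells (cluster 9) also had high constitutive subunits. In WT spleen 32 of 48 members were called higher than in naive-like cells (24.1% of all genes) and in EomesTG spleen 30 of 45 (25.1%). The cluster held 122 cells of WT and 50 cells of EomesTG spleen, so its values in spleen rest on few cells. The constitutive 20S genes had median log2 ratios of 0.82 and 0.98, with 13 of 14 called in each. The immunoproteasome genes had medians of 0.24 and 0.58, with Psmb9 called in both (189 to 313 CPM in WT, log2 0.73, and 236 to 426 CPM in EomesTG, log2 0.85) and Psmb10 in EomesTG (log2 0.63). Psmb8 had ratios of 0.36 and 0.47, Psme1 -0.07 and -0.06, and Psme2 0.16 and 0.58. Psmb5, Psmb6 and Psmb7 had ratios of 0.73, 1.01 and 0.81 in WT. Outside the proteasome proper, Psmc3ip was at 3.89 and 37.3 CPM in WT (log2 3.26), the largest ratio of any member there. Cells of this cluster had 2.48 times the median UMIs of their own libraries, which CPM divides out.

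In liver, where few cells were naive-like, clusters were set against cluster 3, a reference chosen after the clusters were seen. Cycling-like cells had 33 of 48 members called higher in WT liver (29.6% of all genes) and 35 of 47 in EomesTG liver (41.8%). Psmb9 was at 190 and 434 CPM in WT (log2 1.19) and Psmb7 at 35.8 and 97.4 CPM (log2 1.44). The immunoproteasome share of cycling-like cells was 44.3% in WT and 42.3% in EomesTG liver. A share of 42.3% to 45.3% in all 4 libraries placed these cells below the share of each whole library. Against the same cluster the exhausted-like cluster 1 of EomesTG liver had 15 of 48 members called higher (40.1% of all genes) and Psmg1 lower (19.6 to 9.93 CPM, log2 -0.98; 7.64% of all genes). Its median of 0.46 over the members was next to the 0.47 over all genes. Psmb8 (590 to 912 CPM, log2 0.63) and Psmb9 (200 to 312 CPM, log2 0.64) were among those called, as was Psme4 (5.96 to 14.2 CPM), and its immunoproteasome share was 51.4%.

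Interferon-like cells (cluster 8, led by Rsad2, Ifit3 and Ifit1) showed the reverse balance. In WT spleen 2 of 47 members were called higher than in naive-like cells (4.64% of all genes), Psmb10 (161 to 278 CPM, log2 0.79) and Psmb9 (189 to 305 CPM, log2 0.69). In EomesTG spleen 3 of 45 were called (5.67%), Psmb10 (157 to 326 CPM, log2 1.06), Psmb9 (236 to 364 CPM, log2 0.63) and Psmb8 (639 to 982 CPM, log2 0.62). In WT, Psmb8 (log2 0.51), Psme1 (log2 0.45) and Psme2 (log2 0.42) had intervals above equality without reaching 1.5-fold. The constitutive 20S genes had medians of 0.23 and 0.20 with 0 called. In WT liver, against cluster 3, 9 of 47 members were called (6.67%), 4 of them the immunoproteasome genes Psmb10 (192 to 384 CPM), Psmb9 (log2 0.86), Psmb8 (log2 0.80) and Psme2 (log2 0.70). The interferon gamma program had 13 of 16 measured genes called higher in cluster 8 of WT spleen and 13 of 15 in that of EomesTG spleen.

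Cluster 0, which made up much of EomesTG spleen, took an intermediate place. No member reached 1.5-fold against naive-like cells in WT or EomesTG spleen (1.99% and 2.71% of all genes were higher). Its highest immunoproteasome ratio in EomesTG spleen was that of Psmb10 (157 to 232 CPM, log2 0.57), followed by Psmb9 (log2 0.36), Psme2 (log2 0.35), Psmb8 (log2 0.31) and Psme1 (log2 0.16). Psmb5 was at 0.07 and Psmb6 at 0.19. Its summed constitutive and immunoproteasome genes were at 2101 and 2712 CPM in WT and 2111 and 2714 CPM in EomesTG spleen, which is nearly the same in both strains.

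Clone size in liver went with the level of Psmb8 and Psmb9. In WT liver Psmb9 was at 234 CPM in cells of clones of 1 cell, 425 CPM in clones of 2 to 9 and 458 CPM in clones of 10 or more cells. In EomesTG liver the values were 256, 349 and 342 CPM. Psmb8 was at 696, 946 and 958 CPM in WT liver and 704, 957 and 929 CPM in EomesTG liver. Both genes were thus lower in single-cell clones than in larger clones of either liver, beyond their counting intervals. No all-gene median was taken for clone sizes, so this is not read as particular to these genes. In EomesTG liver, cluster 1 held 1816 of the 2247 cells in clones of 10 or more cells. It held 133 of the 1219 cells in 1-cell clones, so clone size and cluster cannot be told apart. The immunoproteasome share did not follow: over the same clone sizes it was 49.5%, 51.1% and 47.8% in WT liver, and in EomesTG liver 52.0% for clones of 1 cell against 49.5% for clones of 10 or more cells. Cells of 1 clone share their descent and their mouse is not recorded, so clone sizes are no replicates.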

How the data were processed

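The authors deposited raw UMI counts per gene and cell, made with Cell Ranger on mm10 per the submitters' processing notes; the matrices name software version 3.1.0 per the file headers. Counting settings are not given in the sources used here. The authors also deposited receptor contig tables, read here for the clonotype of each cell and its productive chains. Members and lists were chosen with earlier results of these data known.

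Barcodes with at least 500 UMIs, 300 genes and under 10% mitochondrial UMIs were kept. Cells were clustered with scanpy 1.11.5 and leidenalg 0.10.2 (2000 variable genes without the members, Eomes, receptor, mitochondrial, ribosomal and sex-linked genes, 30 components, 15 neighbours, resolution 1, no integration) and named from fixed marker lists. No doublet caller was run; leaving out cells with 2 TRB chains was tried as an alternative. UMIs were summed per library, cluster or clone size. A gene was tested with at least 50 UMIs over both sides and called at 1.5-fold with its exact binomial interval (scipy 1.17.1) on that side of equality. Intervals were checked on simulated data. Members always named are the 5 immunoproteasome genes, Psmb5, Psmb6, Psmb7, Psme3, Psme4 and Psmf1; of the others the 5 highest and 5 lowest per library comparison, by the bound nearest to equality; in cluster and clone comparisons further members were named after their values were seen. Up to 4 called genes of each list were named, with Nfe2l1 and Tap1 added after their values were seen; some genes are not reported here. Protein sequences were not used here.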

Additional observations from a re-analysis of the deposited data

Results flagged for a closer look

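Each strain difference between tissues rests on 4 single libraries, so none of the following differences was tested. They stood out because the ratio of EomesTG to WT lay above equality in 1 tissue and below it in the other, with counting intervals that do not overlap. The values are the log2 ratio of EomesTG to WT in liver minus that in spleen.

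Psmg1 had the largest difference, -1.02. Psmb10 (-0.233), Psmd7 (-0.259) and Psme1 (-0.159) were also lower in liver than in spleen by this measure. Psmc1 (0.329), Psmd1 (0.324), Psmd11 (0.274), Psmd14 (0.259), Psmc3 (0.245), Psmd2 (0.201) and Psma3 (0.125) were higher. The all-gene median differs between the 2 comparisons by about the size of the smaller values (0.12 in liver, -0.01 in spleen), and all the values move with the scaling. For most of these genes the interval of 1 tissue includes equality. In liver this holds for Psmc1 (log2 0.09, -0.02 to 0.21), Psmb10 and Psme1. In spleen it holds for Psma3, Psmd1, Psmd2, Psmd7, Psmd14 and Psmg1.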

How the results depend on the processing

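With 1 library per group no replicate could be left out, and levels rest on counting error alone. No paired analysis was possible because each group holds 1 pooled library. The alternatives without cluster 0, without clusters 1 and 15 and without clusters 9 and 14, the liver reference and the split by clone size were chosen after seeing the data. Weighted averages have no interval and were called by fold alone. The cause of the shifts below was not tested.

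The log2 ratio of the summed immunoproteasome genes in EomesTG over WT spleen (0.17) was 0.082 without cluster 0. In EomesTG over WT liver (0.08) it was -0.032 with median of ratios scaling and -0.060 with the reduced total (without mitochondrial, ribosomal, receptor and heat shock genes), 0.105 over all barcodes, 0.116 with cells weighted equally, 0.122 thinned to 2000 UMIs, 0.115 without cycling-like cells, 0.121 without clusters 9 and 14, 0.018 with each clone as 1 cell, and 0.0021 without clusters 1 and 15. In WT liver over spleen (0.11) it was 0.052 and -0.047 under those scalings, 0.090 over all barcodes, 0.079 thinned, 0.070 with equal cells, 0.067 with each clone as 1 cell, 0.072 without cycling-like cells and 0.066 without clusters 9 and 14. In EomesTG liver over spleen (0.03) it was -0.15 and -0.28 under those scalings, 0.012 with equal cells, -0.087 with each clone as 1 cell, 0.128 without cluster 0 and -0.055 without clusters 1 and 15. No direction of this sum between tissues, or between strains in liver, is therefore stable.

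By at least 25%, 1 member was higher in EomesTG over WT spleen, 2 in WT liver over spleen, and 9 higher and 2 lower in EomesTG liver over spleen. The call of Psmg1 in EomesTG over WT liver gave 0 with each clone as 1 cell, without clusters 1 and 15 and at 2-fold. In EomesTG liver over spleen the members lower were 0 with each clone as 1 cell and without clusters 1 and 15, and 3 with the reduced total. The members higher there, 1 in the values above, were 0 with both scalings, equal cells, each clone as 1 cell, without cycling-like cells, without cluster 0, without clusters 9 and 14 and at 2-fold, and 2 thinned. The immunoproteasome share of naive-like cells was 51.7% and 51.8% in WT spleen at resolutions 0.5 and 1.5, and 51.2% in EomesTG spleen at 0.5. It was 54.8% in memory-like cells of WT liver at 1.5 and 51.9% in exhausted-like cells at 0.5. Of 192 member ratios, 192 stayed within their own interval over all barcodes, under 5% mitochondrial UMIs, without cells with 2 TRB chains and without shared barcodes, and 62 with the reduced total.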
